A study of Homo sapiens with 59 samples.

Results

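Cimicifugae Rhizoma is the dried rhizome of Actaea plants, formerly named Cimicifuga, and is used as a herbal medicine. Its 70% ethanol extract was given for 24 h to A549, a long-established line of human lung adenocarcinoma cells, and 3 libraries were made at the medium dose of 100 µg/mL. The libraries described here are replicates 1 and 3 of that dose and the 3 vehicle libraries, 5 of the 59 RNA-seq libraries of the series. The libraries were chosen by a measured value, the level of antisense transcripts: replicate 2 was left out because it was raised there, as were 3 further libraries: low-dose replicate 2 of the same extract, and replicate 3 of the high and of the medium dose of Citri Unshius Pericarpium. Vehicle cells received DMSO alone for 24 h, labelled 0.1% with the samples and 2% in the text of the series. Side groups were the same extract at 20 µg/mL (replicates 1 and 3) and 500 µg/mL (3 libraries). A 70% ethanol extract of Citri Unshius Pericarpium at 20 µg/mL (3 libraries) and 100 µg/mL (replicates 1 and 2) was a further one, and all were given for 24 h. No label ties the replicates to separate cultures, so the p-values cover only the spread between libraries, which may be technical.

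The aryl hydrocarbon receptor (AhR) is a ligand-activated transcription factor that binds DNA together with its partner ARNT at xenobiotic response elements, whose core is GCGTG. Its best-known targets in airway epithelium are the monooxygenases CYP1A1 and CYP1B1, which oxidize aromatic hydrocarbons, and the feedback repressors AHRR and TIPARP. All 4 of these genes rose at the medium dose, so the promoter windows held by the RefSeq table (GRCh38.p14, 250 bases before to 50 bases after a start site) are shown for them, with each GCGTG or its reverse complement CACGC in capitals. CYP1A1 has 1 window, TIPARP 3 and AHRR 2, and for the last 2 genes the first window in genome order is printed; CYP1B1 had no entry. The windows lie at chr15:74725479-74725778 on the minus strand (CYP1A1), chr3:156674340-156674639 on the plus strand (TIPARP) and chr5:321464-321763 on the plus strand (AHRR).
CYP1A1 promoter: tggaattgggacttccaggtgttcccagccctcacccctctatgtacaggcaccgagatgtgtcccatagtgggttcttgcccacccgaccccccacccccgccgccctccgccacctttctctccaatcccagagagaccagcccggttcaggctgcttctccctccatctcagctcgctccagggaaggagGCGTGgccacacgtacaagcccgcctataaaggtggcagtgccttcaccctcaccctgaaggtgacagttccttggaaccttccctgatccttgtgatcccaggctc
TIPARP promoter: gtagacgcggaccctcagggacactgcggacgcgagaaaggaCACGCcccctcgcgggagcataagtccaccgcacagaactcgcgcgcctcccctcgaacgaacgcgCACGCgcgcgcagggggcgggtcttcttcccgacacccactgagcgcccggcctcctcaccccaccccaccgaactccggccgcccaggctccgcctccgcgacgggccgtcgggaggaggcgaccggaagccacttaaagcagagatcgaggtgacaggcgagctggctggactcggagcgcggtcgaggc
AHRR promoter: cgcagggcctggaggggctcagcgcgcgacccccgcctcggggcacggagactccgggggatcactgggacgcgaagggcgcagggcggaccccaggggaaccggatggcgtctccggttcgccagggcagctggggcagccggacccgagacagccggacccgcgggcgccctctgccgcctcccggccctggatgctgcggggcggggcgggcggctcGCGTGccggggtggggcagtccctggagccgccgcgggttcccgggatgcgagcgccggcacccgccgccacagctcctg
The CYP1A1 window held 1 match, beginning at position -57 from the start site. The printed TIPARP window held 2 matches, at positions -208 and -142, and the other TIPARP windows held 0. The printed AHRR window held 1 match, at position -30, and the other AHRR window held 2. The AHRR match at -30 was also the only one in these windows that fitted the longer form TNGCGTG. Searched on both strands, GCGTG stood in 36.5% of all 35116 windows of this length and TNGCGTG in 5.51%. Among genes that rose at the medium dose, 59.8% of the 249 with a window held GCGTG in any window, against 59.1% of the 381 matched genes that fell and 56.7% of the 12160 matched genes tested. A match is a description of the letters and not a bound site.

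The 2 medium libraries held 23108200 and 26602708 expected counts and the 3 vehicle libraries between 19320259 and 27975489. Summed over all genes of antisense biotype, antisense transcripts stood at 3149 CPM (counts scaled to a common library total) in the left-out medium replicate 2, and the highest retained library of the series was at 3137 CPM. Medium replicates 1 and 3 were at 2593 and 2877 CPM and the vehicle libraries between 2762 and 2806 CPM. Antisense genes are therefore described by this sum, apart from SNHG12, which is given below as a member of a gene list. They stayed in the counts: 1290 were among the genes tested and 9 among those called between the medium dose and the vehicle. Long intergenic noncoding RNAs summed to 4110 and 4783 CPM at the medium dose and to 5884 to 6039 CPM in the vehicle, and mitochondrial mRNAs took 7.75% and 7.47% of counts against 5.55% to 6.19%. Vehicle libraries are coded as a separate set, and an effect of the extract cannot be told apart from a difference between their set of libraries and that of the extract. Lung epithelial and A549 markers were present: 13 of 18 passed the low-count filter, among them KRT8, KRT7 and ALDH1A1. The surfactant genes SFTPB, SFTPC and SFTPD, NKX2-1 and SLC34A2, which define alveolar type II cells and their lineage, did not exceed 5 counts in any of the 5 libraries. Of 20 markers of other cell types, 12 did not pass, 3 of them at 0 in all 5 libraries (PTPRC, CD3E and APOA2), and none of these 12 exceeded 3 counts. The 8 that passed summed to 41.1 and 42.8 CPM at the medium dose and 38.5 to 41.4 CPM in the vehicle, and none was called.

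Of 18339 genes tested, edgeR's quasi-likelihood test with Benjamini-Hochberg adjustment called 802 between the medium dose and the vehicle at an adjusted p below 0.05, or 4.37% of the genes tested. Of these, 326 were higher (1.78% of the genes tested) and 476 were lower (2.6%). The median size of the called changes was 1.25-fold, and 34 of the 802 passed 2-fold, a log2 fold change above 1 in size. Most of these calls rested on medium replicate 1. It lay farther from the vehicle mean than replicate 3 in 83.8% of the called genes, against 60.9% of all genes tested, and without it 12 genes were called, all 12 of them among the 802. Without replicate 3, 1216 were called, 641 of them among the 802. Without vehicle replicates 2 and 3 in turn the count was 366 and 298. When all 59 libraries were fitted, which adds the 4 left-out libraries and with them medium replicate 2, 5 genes were called (CYP1A1, CYP1B1, RAP1GAP, DPH6 and GINS1), and a fit of the vehicle and the libraries of the extract's own set alone called 4.

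Among the AhR targets, 4 of the 7 measured members rose (of 10 on the list) and 0 fell. Over all genes tested 1.78% rose and 2.6% fell. The median log2 fold change of the measured members was 0.64, against -0.0001 over all genes tested. The list and its leading members were chosen with earlier results of these data known, so the count is not independent evidence of a direction. CYP1A1 (chromosome 15, 74719542 to 74725610, minus strand) was at 0.899, 0.736 and 0.618 CPM in the vehicle libraries and at 2.66 and 3.61 CPM at the medium dose. Both medium libraries lay above every vehicle library, as was the case, in either direction, for 38.3% of all genes tested. The rise was 4.13-fold, a log2 fold change of 2.05 ± 0.25 (SE; adjusted p = 1.3e-05, edgeR's quasi-likelihood test). CYP1A2, the neighbouring member of the family, did not exceed 1 count in any of the 5 libraries.

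CYP1B1 (chromosome 2, 38066973 to 38109902, minus strand) was at 58.3, 54.9 and 53 CPM in the vehicle and at 100.5 and 94.9 CPM at the medium dose. It rose 1.76-fold, with a log2 fold change of 0.82 ± 0.07 (adjusted p = 1.71e-10). The groups were far apart compared with the spread within them, and CYP1B1 was the only gene called under all 17 alternative analyses; CYP1A1 was called in the 15 that gave it an adjusted p. TIPARP, an ADP-ribosyltransferase that represses AhR (chromosome 3, 156673235 to 156706770, plus strand), was at 35.2, 32.4 and 32.9 CPM in the vehicle and 53.1 and 51.4 CPM at the medium dose, a log2 fold change of 0.64 ± 0.09 (adjusted p = 1.69e-04). AHRR, the AhR repressor (chromosome 5, 304176 to 438291, plus strand), was at 2.78, 2.56 and 2.21 CPM and then at 4.62 and 3.57 CPM, a log2 fold change of 0.69 ± 0.17 (adjusted p = 0.0175). AHRR overlaps PDCD6 on the same strand. With all 59 libraries fitted, CYP1A1 and CYP1B1 were called and TIPARP and AHRR were not. The same held in the fit of only the vehicle and the extract's own library set. Without medium replicate 1 the calls of CYP1A1, CYP1B1 and TIPARP held, and AHRR was at an adjusted p of 0.44.

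The 3 other measured members were not called. The amino acid transporter SLC7A5 had a log2 fold change of 0.09 ± 0.07, the aldehyde dehydrogenase ALDH3A1 one of 0.06 ± 0.13 and the quinone reductase NQO1 one of -0.06 ± 0.07. RAP1GAP, a GTPase-activating protein for Rap1 that is not on the list, moved in the same direction: it was at 22.3, 21.0 and 25.4 CPM in the vehicle and at 39.1 and 32.8 CPM at the medium dose. Its log2 fold change was 0.66 ± 0.12 (adjusted p = 0.0012), and without medium replicate 1 its adjusted p was 0.161.

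**Figure D1:**
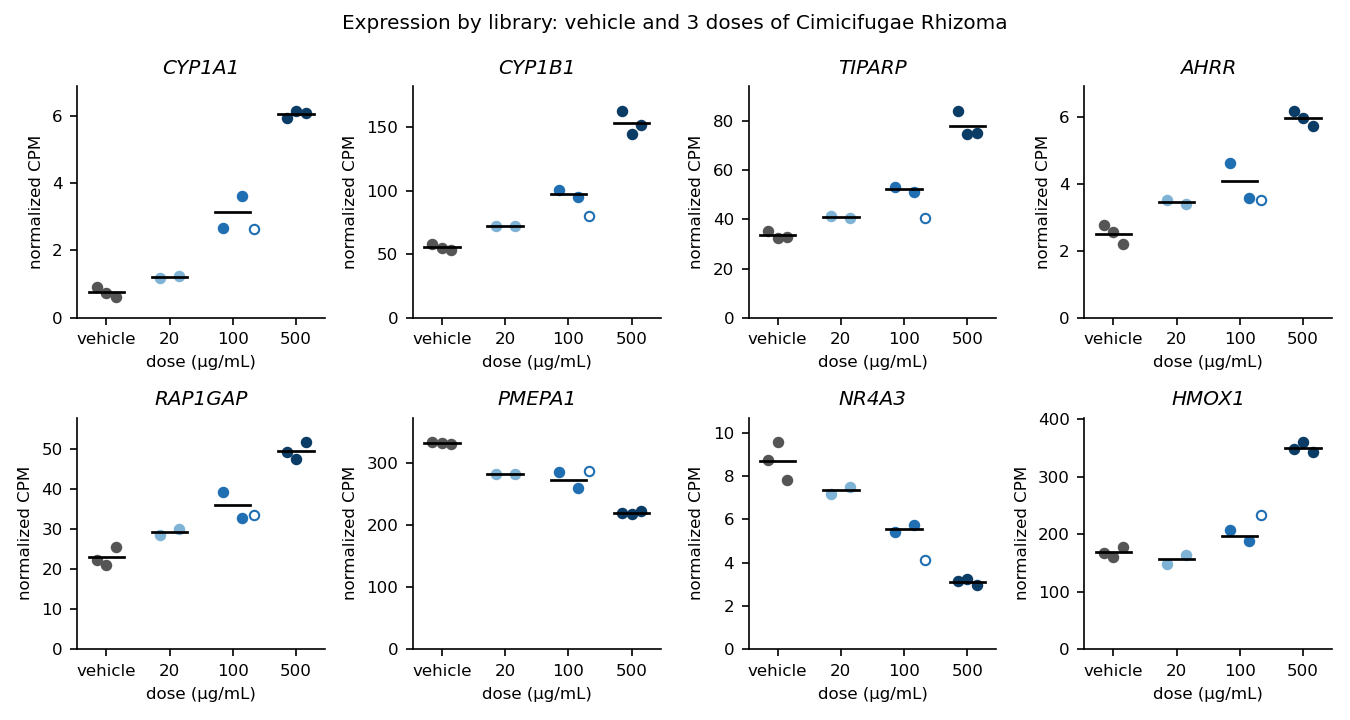
Normalized CPM (vertical axes, from 0) of 8 genes in each library of the vehicle and of the 20, 100 and 500 µg/mL doses (horizontal axes). Filled points are libraries in the fit, black bars group means, and the open point is the left-out medium replicate 2; the group means of CYP1A1, CYP1B1, TIPARP, AHRR and RAP1GAP rise from vehicle to the highest dose and those of PMEPA1 and NR4A3 fall, while HMOX1 is high only at 500 µg/mL.

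The medium dose stood between the low and the high dose for these genes. CYP1A1 had a mean of 0.751 ± 0.141 CPM (SD, n = 3) in the vehicle, 1.21 ± 0.0342 (n = 2) at 20 µg/mL, 3.13 ± 0.675 (n = 2) at 100 µg/mL and 6.07 ± 0.111 (n = 3) at 500 µg/mL. For CYP1B1 the same means were 55.4 ± 2.68, 71.9 ± 0.0373, 97.7 ± 4.00 and 153 ± 9.12 CPM. Neither gene had overlapping libraries between neighbouring doses, as was the case for 32.2% of all genes between the low and the medium dose and 23.3% between the medium and the high dose. TIPARP ran from 33.5 ± 1.49 through 41.0 ± 0.791 and 52.3 ± 1.21 to 78.1 ± 5.37 CPM, and AHRR had means of 2.52, 3.46, 4.09 and 5.97 CPM in the same order. For AHRR the vehicle libraries lay below every fitted library of this extract. Its medium replicate 3 (3.57 CPM) lay close to the low-dose libraries (3.52 and 3.41 CPM). In the left-out medium replicate 2, CYP1A1 was at 2.65, CYP1B1 at 80.0, TIPARP at 40.6 and AHRR at 3.52 CPM, each above every vehicle library, with TIPARP at the level of the low dose.

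Between the medium and the low dose, which uses no vehicle library, 1 gene was called, 0.00545% of those tested. It was CYP1B1, with a log2 fold change of 0.44 ± 0.07 (adjusted p = 0.0086, edgeR's quasi-likelihood test), and 1061 genes had an unadjusted p below 0.05. CYP1B1 was not called there with all 59 libraries fitted, nor with only the vehicle and the extract's own library set. CYP1A1 differed by a log2 fold change of 1.37 ± 0.27 between these doses, with an adjusted p of 0.12, and TIPARP by 0.35 ± 0.10, with an adjusted p of 0.78. The call of CYP1B1 was lost when medium replicate 1, low replicate 1 or low replicate 3 was left out, each of which gave 0 calls. Between the high and the medium dose 45 genes were called (0.245%), 9 higher (0.0491%) and 36 lower (0.196%). CYP1B1 rose again by 0.65 ± 0.07 on the log2 scale (adjusted p = 1.29e-07), TIPARP by 0.58 ± 0.09 (adjusted p = 3.97e-04) and CYP1A1 by 0.95 ± 0.21 (adjusted p = 0.0259), while AHRR had a log2 fold change of 0.55 ± 0.16 and an adjusted p of 0.212. Without medium replicate 1 that comparison called 13 genes, and without medium replicate 3 it called 203.

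HMOX1, the heme oxygenase induced by oxidative stress, marked a difference between the medium and the high dose. It was at 168, 161 and 178 CPM in the vehicle and at 207 and 187 CPM at the medium dose, a log2 fold change of 0.22 ± 0.10 that was not called (adjusted p = 0.22). At 500 µg/mL it was at 348, 359 and 342 CPM, above the medium dose by 0.83 ± 0.11 on the log2 scale (adjusted p = 1.26e-05). None of the 25 measured NRF2 targets was called at the medium dose, and their median log2 fold change was -0.02. The orphan nuclear receptor NR4A3, an immediate early gene, moved the other way: 8.76, 9.57 and 7.82 CPM in the vehicle, 5.40 and 5.75 CPM at the medium dose and 3.14, 3.25 and 2.96 CPM at the high dose. It fell by 0.65 on the log2 scale (SE 0.14, adjusted p = 0.00778) against the vehicle, and high-dose libraries lay below the medium ones by a further log2 fold change of -0.84 ± 0.16 (adjusted p = 0.00483). NR4A3 was the only 1 called against the vehicle of 26 measured immediate early and MAPK feedback genes, a share near the 4.37% over all genes tested. Its relative NR4A1 was at 38.1, 35.8 and 39.7 CPM in the vehicle and 29.1 and 23.2 CPM at the medium dose (adjusted p = 0.131). PDK4, the kinase that shuts pyruvate dehydrogenase down, was at 21.7, 23.2 and 26.4 CPM and then at 20.3 and 15.5 CPM (adjusted p = 0.0578), and SUSD2, a membrane protein, at 27.2, 24.7 and 25.5 CPM and then at 25.5 and 21.3 CPM (adjusted p = 0.555). All 3 were called lower between the high and the medium dose.

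The comparison of the high with the low dose shares no library with that of the medium dose with the vehicle, and it called 88 genes (0.48%), 17 higher (0.0927%) and 71 lower (0.387%). Of these 88, 27 (30.7%) were also among the 802, or 3.37% of the latter. All 27 had the same direction in both, 11 higher and 16 lower. Their 4 group means also ran in the order of dose, but being called in both comparisons already fixes most of that order, so it adds no support. Of the 326 risen genes, 62.9% had a positive fold change between the high and the low dose, against 52% of all genes tested, and 59.7% of the 476 fallen genes had a negative one, against 47.8%.

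**Figure D2:**
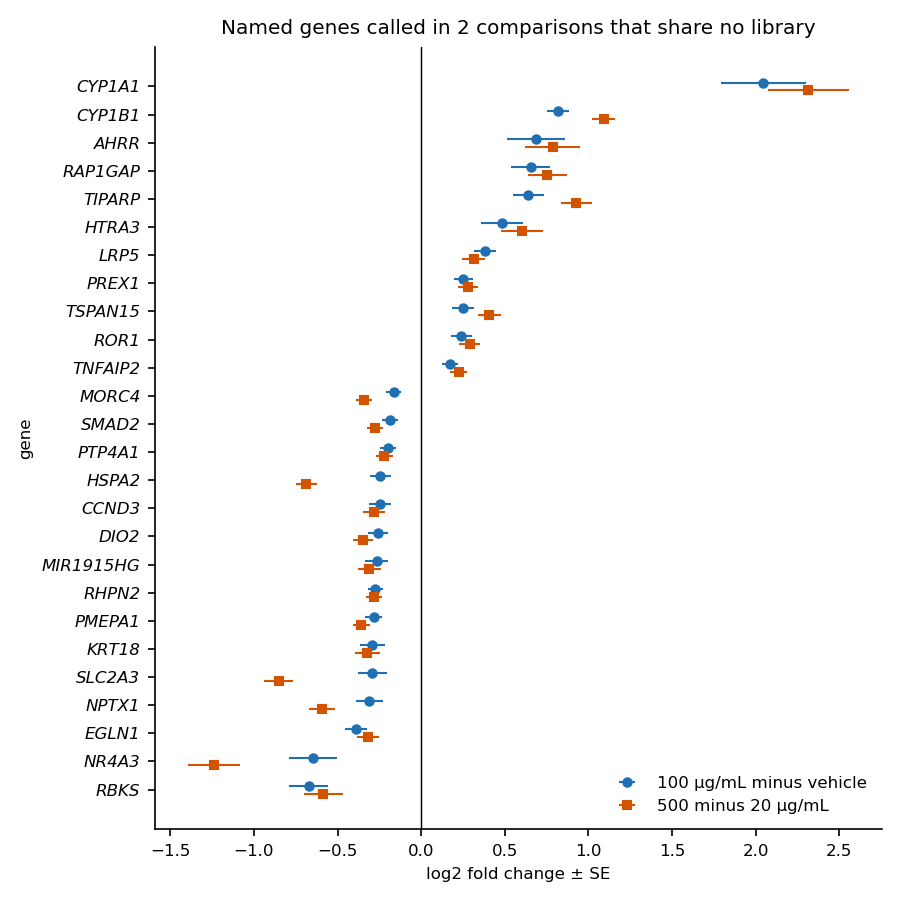
Log2 fold change ± SE (horizontal axis) of the genes with a symbol that were called both at 100 µg/mL against vehicle (circles) and at 500 against 20 µg/mL (squares). The 11 risen genes lie right of 0 and the fallen genes left of 0 in both comparisons, with CYP1A1 at 2.05 and 2.31 and NR4A3 at -0.65 and -1.24.

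Besides CYP1A1, CYP1B1, TIPARP, AHRR and RAP1GAP, the risen genes called in both were chosen after their values were seen and are all named here. They were the Wnt co-receptor LRP5 (83.5 CPM in the vehicle and 109 CPM at the medium dose, log2 fold change 0.38 ± 0.07), the secreted serine protease HTRA3 (7.66 and 10.7 CPM), the exchange factor PREX1 (18.7 and 22.3 CPM), the tetraspanin TSPAN15 (63.4 and 75.4 CPM), the receptor ROR1 (39.5 and 46.6 CPM) and TNFAIP2 (318 and 358 CPM). In the left-out medium replicate 2, LRP5 had a log2 ratio to the vehicle mean of -0.19, opposite to its call. Fallen genes included PMEPA1, an inhibitor of SMAD signalling that TGF-beta induces. It was at 333, 333 and 331 CPM in the vehicle, 286 and 260 CPM at the medium dose and 219, 218 and 222 CPM at the high dose. Its log2 fold change at the medium dose was -0.28 ± 0.05 (adjusted p = 0.00132, edgeR's quasi-likelihood test). It was the only 1 of 16 measured TGF-beta and mesenchymal genes that was called, a share near the 4.37% over all genes tested. The median of that list was 0.01, with 10 fold changes positive and 6 negative. SMAD2, a signal transducer of that pathway that is not on the list, is named only because it was among the 27 (121 and 106 CPM). EGLN1, the prolyl hydroxylase that marks HIF for degradation, had means of 192 CPM in the vehicle, 174 at the low, 146 at the medium and 140 at the high dose. The glucose transporter SLC2A3 fell from a mean of 32.9 to 26.9 CPM (adjusted p = 0.0414) and stood at 17.7 CPM at the high dose. The keratin KRT18 fell from a mean of 2710 to 2213 CPM (adjusted p = 0.0203), with 2264 CPM at the low and 1810 CPM at the high dose, but stood at 2915 CPM in the left-out medium replicate 2. KRT18 lies opposite KRT8, and whether the counting used strand is not stated in the labels or notes. The ribose kinase RBKS fell by 0.67 on the log2 scale (SE 0.12, adjusted p = 0.00116), and its left-out medium replicate, at 6.21 CPM, lay within the vehicle range of 5.94 to 6.27 CPM. The remaining fallen genes were the pentraxin NPTX1 (365 CPM in the vehicle and 295 CPM at the medium dose), the HSP70 family member HSPA2 (68.9 and 58.2 CPM), the deiodinase DIO2 (67.7 and 56.6 CPM), the cyclin CCND3 (246 and 207 CPM), the phosphatase PTP4A1 (656 and 572 CPM), RHPN2, MORC4, the noncoding host transcript MIR1915HG and a gene listed without a symbol.

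The left-out replicate, which did not enter the choice of these genes, was set beside them as a description. Relative to the vehicle mean its median log2 ratio was 0.47 over the 11 genes that rose in both comparisons and -0.35 over the 16 that fell in both, and 9 of 11 and 14 of 16 lay on the side of their call. Over all 326 risen genes its median log2 ratio was -0.09, with 39.9% on the side of their call, and over all 476 fallen genes it was 0.00, with 49.8%. The 2 retained libraries had medians of 0.40 and 0.25 over the risen genes and of -0.39 and -0.25 over the fallen ones, and these 2 chose the genes. Fitted with the left-out replicate, the comparison called 340 genes, 200 of them among the 802.

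**Figure D3:**
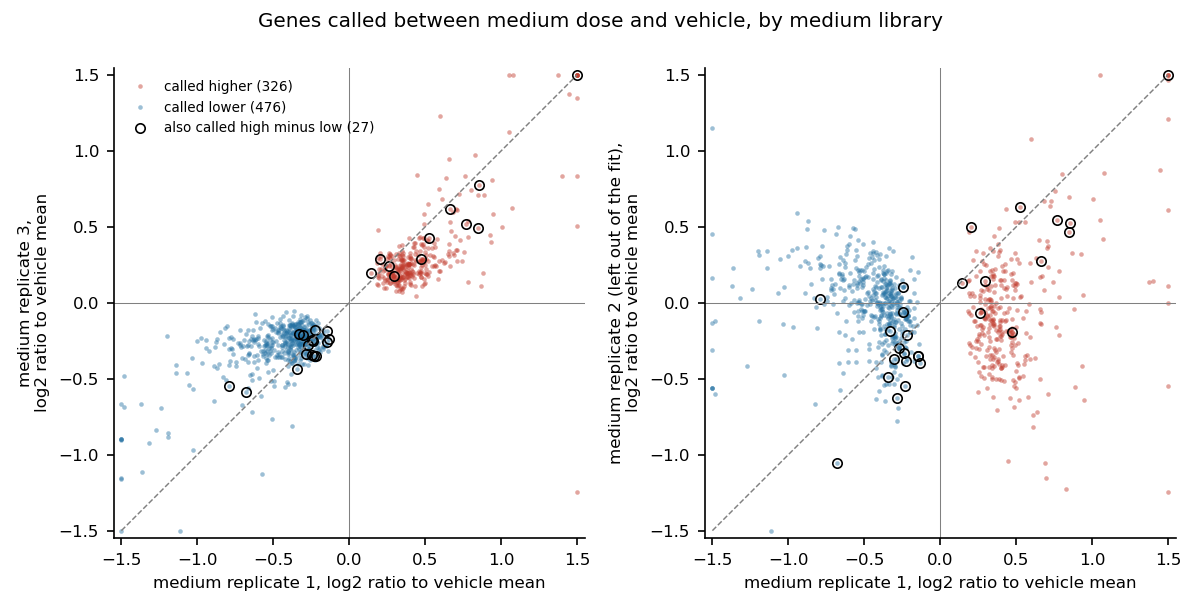
Each point is 1 of the 802 genes called between the medium dose and the vehicle, with the log2 ratio of medium replicate 1 to the vehicle mean on the horizontal axes and that of replicate 3 (left) or the left-out replicate 2 (right) on the vertical axes. Values beyond 1.5 are drawn at the edge, the dashed line marks equality, and black rings mark the 27 genes also called between the high and the low dose, which follow the line in replicate 2 more closely than the other points.

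Without medium replicate 1, 5 genes were called higher and 7 lower, and all 12 are named here by that outcome. The higher ones were CYP1B1, CYP1A1, TIPARP, KANK1, a regulator of the actin cytoskeleton, and the pseudogene ITGB1P1. KANK1 was at 19.7, 18.4 and 18.5 CPM in the vehicle and 21.7 and 23.7 CPM at the medium dose, but at 17.8 CPM in the left-out replicate. ITGB1P1 was at 56.5, 58.0 and 53.4 CPM and then at 88.9 and 81.0 CPM, with 53.7 CPM in the left-out replicate. It is a near copy of the integrin gene ITGB1, with which it may share reads, and its level at the low dose, 80.8 CPM, was close to that at the medium dose. The lower ones were PMEPA1, EGLN1, PSMD10, C1D, LACTB2, ARL6IP6 and TMEM64. EGLN1 was at 192, 194 and 190 CPM in the vehicle and at 151 and 142 CPM at the medium dose, with 137 CPM in the left-out replicate. PSMD10, an assembly factor of the proteasome, was at 69.3, 70.7 and 74.0 CPM and then at 56.4 and 53.9 CPM. Its left-out replicate, at 67.2 CPM, lay nearer the vehicle libraries than these medium ones. C1D, a cofactor of the nuclear exosome, was at 24.4, 25.9 and 24.5 CPM and then at 15.9 and 15.1 CPM, but at 25.2 CPM in the left-out replicate. TMEM64 was at a mean of 47.3 ± 1.83 CPM in the vehicle and 34.7 ± 2.94 CPM at the medium dose, and the left-out replicate at 30.2 CPM lay on the same side.

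Of the lipid genes, those of fatty acid synthesis were called only in the higher direction. Of 11 measured members, 4 rose and 0 fell, with a median log2 fold change of 0.22, where 1.78% of all genes tested rose and 2.6% fell. SCD, which makes monounsaturated fatty acids, was at 935, 925 and 872 CPM in the vehicle and at 1331 and 1172 CPM at the medium dose, a log2 fold change of 0.46 ± 0.10 (adjusted p = 0.00778). The desaturases FADS2 (log2 fold change 0.29 ± 0.06, adjusted p = 0.00424) and FADS1 (0.22 ± 0.07, adjusted p = 0.0421) and the elongase ELOVL6 (0.29 ± 0.06, adjusted p = 0.00588) rose as well. FADS1 and FADS2 overlap on opposite strands. The synthase FASN, at a mean of 532 CPM in the vehicle and 621 CPM at the medium dose, and the carboxylase ACACA, at 229 and 282 CPM, were not called (adjusted p = 0.0509 and 0.0767). Of 8 measured LXR targets, 2 rose and 0 fell: SREBF1, the transcription factor that drives fatty acid synthesis (157, 160 and 158 CPM, then 204 and 189 CPM), and LPCAT3, a phospholipid-remodelling enzyme (45, 41.9 and 42.8 CPM, then 55.7 and 52.6 CPM). LPCAT3 and SREBF1 had adjusted p-values of 0.0214 and 0.0025. Of 24 cholesterol genes DHCR7 alone rose (log2 fold change 0.22 ± 0.06), and the list median was 0.01.

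Between the medium and the low dose none of these lipid genes was called. Low-, medium- and high-dose means of SCD were 1220, 1252 and 1230 CPM, and those of FADS1 364, 359 and 381 CPM, both above the vehicle means of 911 and 307 CPM. The medium minus low log2 fold changes were 0.04 ± 0.11 for SCD and -0.02 ± 0.07 for FADS1, which are small beside their standard errors. Those of SREBF1 (0.15 ± 0.07), LPCAT3 (0.18 ± 0.09), DHCR7 (0.13 ± 0.06), ELOVL6 (0.10 ± 0.07) and FADS2 (0.09 ± 0.07) were positive and larger than their standard errors. In the left-out medium replicate SCD (849 CPM) lay below and SREBF1 (158 CPM) within the range of the vehicle libraries, while FADS2 (459 CPM), FADS1 (340 CPM), ELOVL6 (35.4 CPM), LPCAT3 (46.9 CPM) and DHCR7 (99.1 CPM) lay above it. Without medium replicate 1 no gene of these 3 lists was called. The members of the fatty acid list also have long transcripts, with a median of 5073 bases against 3094 bases over all genes tested.

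Of 32 measured DNA replication genes 4 fell and 0 rose, with a median log2 fold change of -0.07, where 2.6% of all genes tested fell. The fold change was negative in 22 members and positive in 10, against 9172 and 9144 of all 18339 genes tested. GINS1, a subunit of the replicative helicase, was at 84.9, 87.9 and 88.1 CPM in the vehicle and at 68.5 and 72.0 CPM at the medium dose, a log2 fold change of -0.31 ± 0.06 (adjusted p = 0.00209). The left-out replicate, at 71.8 CPM, lay between these medium libraries. DPH6, an enzyme of diphthamide synthesis outside this list, was at 8.44, 8.58 and 8.39 CPM in the vehicle and at 5.31 and 5.72 CPM at the medium dose, with 6.43 CPM in the left-out replicate (log2 fold change -0.62 ± 0.11, adjusted p = 0.00165). PCNA, the sliding clamp (-0.26 ± 0.06), the flap endonuclease FEN1 (-0.20 ± 0.05) and the thymidylate synthase TYMS (-0.19 ± 0.05) fell too, but their left-out replicate values, 308, 130 and 151 CPM, lay within or above the vehicle range. FEN1 overlaps FADS2 on the same strand. The 6 MCM helicase genes MCM2 to MCM7 were not called. Among 26 measured mitotic genes 2 rose and 2 fell, with a median of 0.04. The proliferation marker MKI67, whose transcript has 12678 bases, rose from 503 to 692 CPM and the checkpoint kinase BUB1B from 66 to 74.8 CPM, while the cyclin CCNB1 fell from 238 to 199 CPM and its kinase CDK1 from 152 to 123 CPM. In the left-out replicate MKI67 was at 350 CPM, below each of the vehicle libraries, which ran from 438 to 559 CPM.

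A few protein folding genes fell and 0 rose, where 1.78% of all genes tested rose and 2.6% fell. Fold changes were positive in 9 and negative in 10 of the ER genes, and in 5 and 12 of the heat shock genes. The lists were not tested, and these few calls are given as values and not as a direction of the lists. Of 19 measured genes of the ER and the unfolded protein response 3 fell, the ER proteins SDF2L1 (18.0 to 10.8 CPM), DNAJB9 (12.9 to 9.51 CPM) and the translocon subunit SEC61B (60.4 to 46.1 CPM), with a list median of -0.07. Of 17 heat shock proteins 2 fell, the mitochondrial chaperonin HSPD1 (log2 fold change -0.28 ± 0.06) and the co-chaperone DNAJA1 (-0.24 ± 0.06), with a list median of -0.10. The stress-induced HSPA1A and HSPA1B had log2 fold changes of -0.02 and 0.01. Of 24 nuclear-encoded respiratory chain genes, NDUFA9 and SDHC fell and none rose; 23 of the 24 had a negative fold change and the median was -0.18. All 13 mitochondrially encoded mRNAs had a positive fold change, with a median of 0.37, and none was called; they summed to 74733 and 77983 CPM at the medium dose and 54370 to 61545 CPM in the vehicle, but to 50097 to 93694 CPM across the low-dose libraries. Over all 18339 genes tested 9144 fold changes were positive and 9172 negative. Members of a list are not independent of each other, so these counts of signs are only a description. None of 26 ribosomal protein genes was called, with a median of -0.17. The ribosomal and respiratory lists have median transcripts of 2010 and 2097 bases.

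The other lists held between 0 and 4 called members. In glycolysis and hypoxia NDRG1 rose (0.27 ± 0.06) and SLC2A3, PGAM1 and BNIP3 fell, and of 22 measured members the median was 0.01. The inflammatory genes CXCL5 (85.8 to 62.2 CPM) and SOD2 (86.6 to 74.1 CPM) fell, 2 of 18. The snoRNA host transcripts SNHG5, SNHG12 and GAS5 fell, 3 of 13 in their list, and the left-out replicate lay above the vehicle range for all 3 of them. SNHG12 is of antisense biotype, the class whose level chose the libraries, so its call and its left-out value are no support. Over all genes tested 4.37% were called. The next lists have few members and 1 or 2 calls each, so their shares are coarse and the calls are given only as values. Of 4 metallothionein and zinc genes the zinc exporter SLC30A1 fell. Of 22 p53 targets the nuclease AEN alone fell, near the 4.37% called, and of 12 FOXO targets GADD45A fell. Single risen genes were the repressor BCL6 of those same 12 and the retinoic acid receptor RARA of 11 estrogen receptor targets. In the ATF4 (29 genes), interferon (14), glucocorticoid receptor (9), ribosome biogenesis (22), PXR and CAR (5) and fatty acid oxidation (10) lists none was called.

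**Figure D4:**
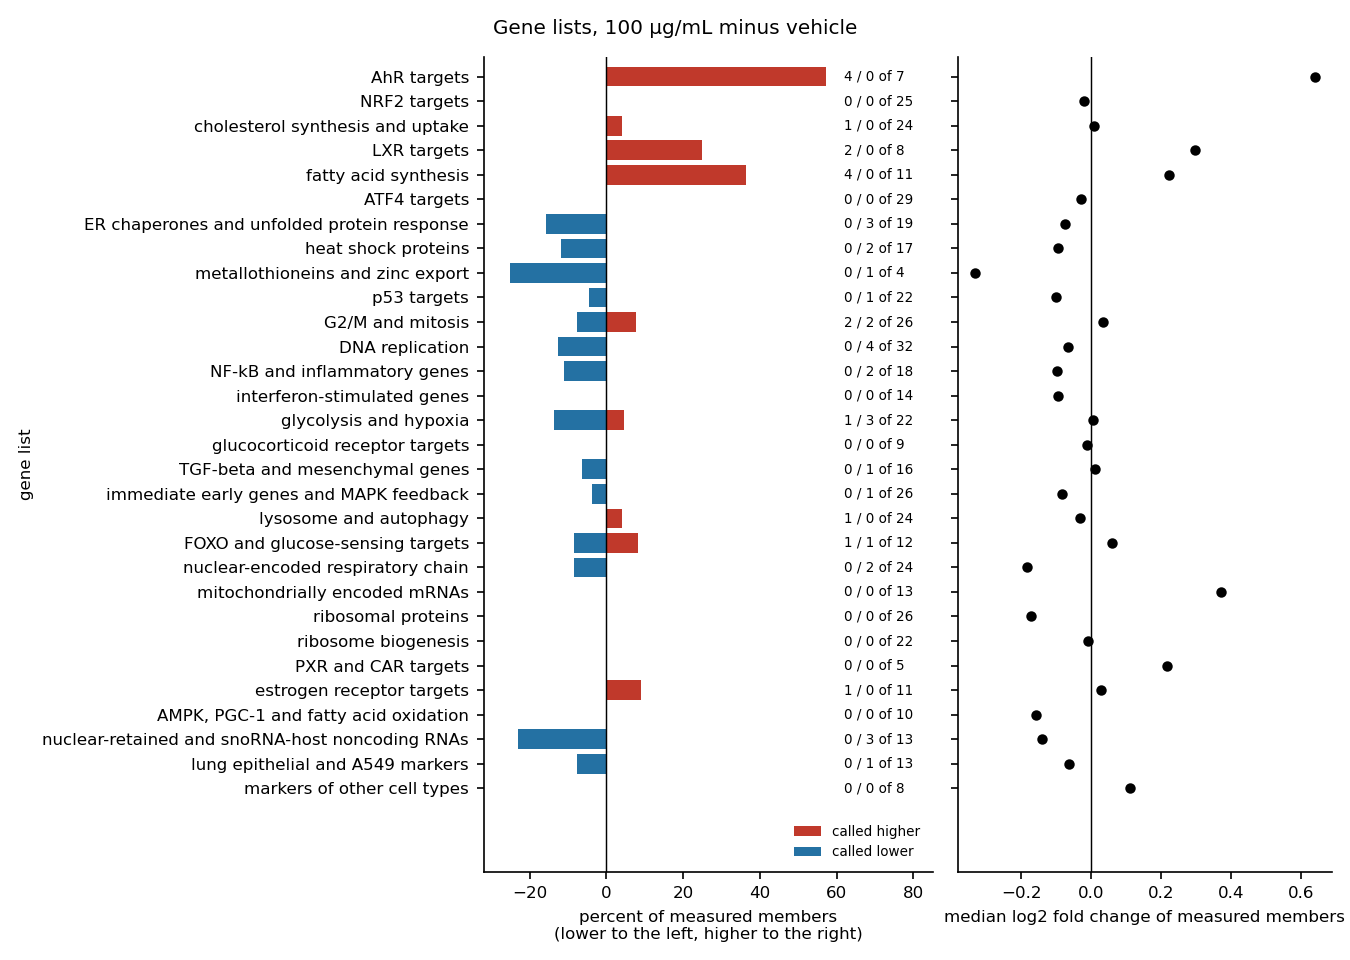
For each gene list, the left panel gives the percent of measured members called higher (right of 0) or lower (left of 0) between 100 µg/mL and vehicle, with the counts as higher / lower of measured, and the right panel gives the median log2 fold change of all measured members. AhR targets (4 of 7) and fatty acid synthesis (4 of 11) have the most risen members, and the median of AhR targets, 0.64, lies farthest from 0.

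Among genes that met the naming rules, the largest changes outside these lists were often of read-through genes, pseudogenes or short transcripts. The rules, given with the processing below, require a symbol and non-overlapping groups and set a floor of 5 CPM. Other called genes with large changes did not meet them and are not described, such as MVP-DT (log2 fold change -1.11) and FAM117A (0.91). FMC1-LUC7L2, a read-through transcript, rose from 2.93, 4.77 and 2.68 CPM to 10.0 and 17.4 CPM (log2 fold change 1.97 ± 0.48), while FMC1, which it overlaps on the same strand, fell from 10.3, 9.50 and 10.4 CPM to 4.79 and 6.88 CPM; reads of the pair cannot be told apart. BCL2L2-PABPN1 is likewise a read-through gene, and RPL22P1 and MTATP6P1, which rose, and RPSAP58 and HNRNPA1P7, which fell, are pseudogenes whose reads may belong to their parent genes. Long genes that rose included FAT3 (2.77 to 3.60 CPM, then 4.79 and 5.45 CPM), TRANK1, PLEKHM3 and EVC. The left-out replicate was below the vehicle range in all 4, as for EVC at 12.6 CPM against 18.6 to 25.2 CPM. Short genes that fell included ANAPC11, a subunit of the mitotic ubiquitin ligase (75.9, 76.5 and 87.2 CPM, then 39.2 and 53.9 CPM), COPS9, UQCRQ, TAF13 and RPL39. For ANAPC11 the left-out replicate was at 86.0 CPM, within the vehicle range, while the low-dose libraries (52.5 and 54.6 CPM) and the high-dose libraries (51.6 to 62 CPM) lay below it.

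Transcript length moved with the comparison. The longest annotated transcript had a median of 5010 bases among the risen and 2733 bases among the fallen genes, against 3094 bases over all genes tested, of which 99.2% had a length. Over 10434 protein-coding genes with a mean of at least 5 CPM, split by length into 5 classes of equal size, the median log2 fold change went from -0.07 in the shortest to 0.07 in the longest class. In the shortest class 0.958% of genes rose and 6.23% fell, and in the longest 5.13% rose and 1.39% fell. Within single libraries, the median log2 CPM of the shortest minus that of the longest class was -0.79 and -0.67 in medium replicates 1 and 3 and 0.11 in the left-out replicate 2. It was -0.61, -0.54 and -0.39 in the vehicle, -0.81 and -0.65 at the low dose and between -0.81 and -0.51 at the high dose. With each library's trend with length and GC content taken as an offset, a setting added after the data were seen, 1269 genes were called, 659 of them among the 802, and of the genes named for this comparison CXCL5, CDK1 and NDUFA9 lost their calls. CYP1A1, CYP1B1, TIPARP and AHRR kept theirs. The part of length in the single calls was not tested beyond this.

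**Figure D5:**
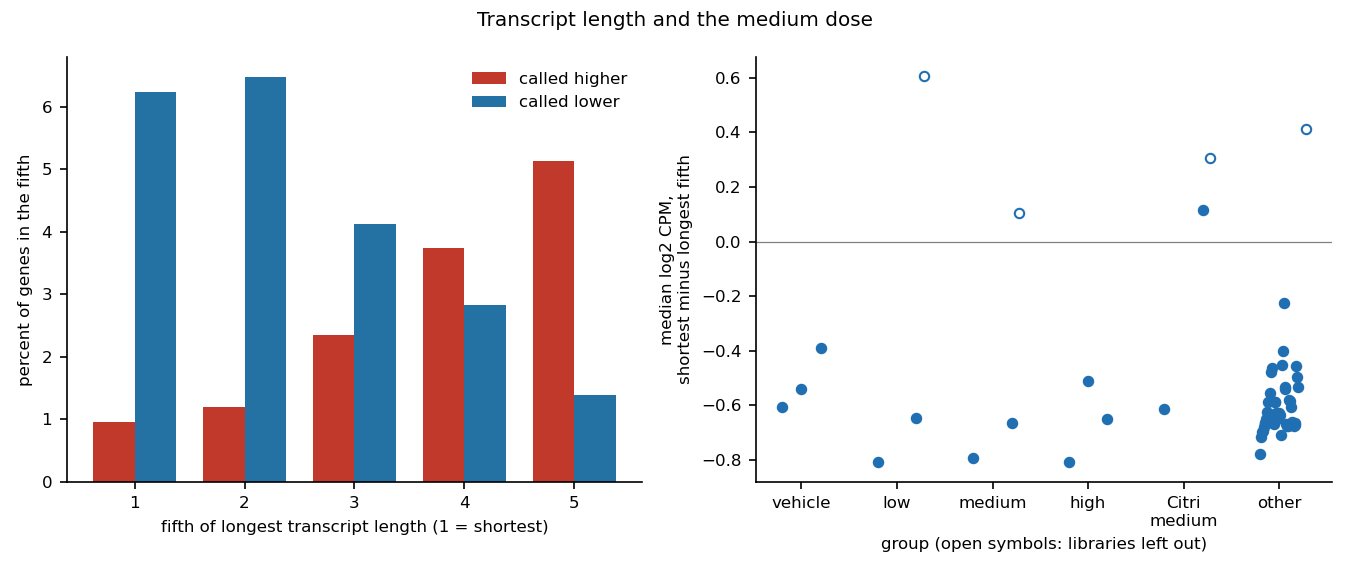
Left, percent of protein-coding genes called higher or lower between 100 µg/mL and vehicle (vertical axis, from 0) in each of 5 classes of transcript length (horizontal axis). Right, the median log2 CPM of the shortest minus the longest class in each library (points; open, left out), which lies at -0.79 and -0.67 in the medium libraries and between -0.61 and -0.39 in the vehicle.

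Against the other extract of the same library set at the same dose, Citri Unshius Pericarpium at 100 µg/mL, 3655 genes were called (19.9%), 1398 higher (7.62%) and 2257 lower (12.3%). This count rested on Citri replicate 2, in which the length measure was 0.12: without it 0 genes were called (1811 at an unadjusted p below 0.05), and without Citri replicate 1 the count was 7737. CYP1A1 was at 1.34 and 0.680 CPM and CYP1B1 at 76.8 and 62.8 CPM in the 2 Citri libraries, each below both medium libraries of Cimicifugae Rhizoma (39.8% of genes tested did not overlap between these groups, in either direction), with log2 fold changes of 1.67 ± 0.27 (adjusted p = 4.41e-04) and 0.49 ± 0.07 (adjusted p = 2.86e-04). TIPARP, at 39.1 and 51.4 CPM, and AHRR, at 3.65 and 2.82 CPM, did not pass the test (adjusted p = 0.142 and 0.182). NR4A3 was at 6.99 and 10.2 CPM in the Citri libraries, above both medium libraries, with a log2 fold change of -0.63 ± 0.15 (adjusted p = 0.0052).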

How the data were processed

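Total RNA of A549 cells was sequenced with a strand-specific kit as paired reads of 100 bases. The deposited table holds the authors' RSEM expected counts for 60675 genes, and 84.4% of values in genes not at 0 are whole. Trim Galore 0.6.5, STAR 2.7.3a, RSEM 1.3.3 and FastQC 0.11.9 are named in the submitters' processing notes; whether the counting used strand is not stated there. Of the table's columns 59 were used, and 210 columns that match no sample of the series were not. Gene IDs were looked up in GENCODE 29 (GRCh38), where 94.0% were found.

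Expected counts were rounded to whole numbers and scaled by TMM in edgeR 4.0.16 (R 4.3.3, limma 3.58.1). Genes passed filterByExpr (minimum count 10, minimum total 15). The 55 libraries were fitted with 25 group means (30 residual and 6.5 prior degrees of freedom), and quasi-likelihood p-values were adjusted by Benjamini-Hochberg over 18339 genes with a threshold of 0.05. Fitting all groups lets the 2 medium libraries borrow the spread of the others. CPM are TMM-normalized; those of the left-out replicate come from the scaling of all 59 libraries. Totals ran from 17214755 to 39751161 expected counts. Figures used Python 3.11.15, pandas 2.3.3, numpy 2.4.6 and matplotlib 3.10.9. The scripts were tested on simulated counts.

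The comparisons were medium with vehicle, low, high and Citri Unshius Pericarpium medium, and high with low. Named genes were the 15 largest called rises and falls with a symbol, non-overlapping groups and a mean of 5 CPM or more in the higher one, up to 4 called members of each list in each direction, and 12 genes that earlier results name for this extract; others are said to be chosen by their outcome. Members and gene lists were chosen with earlier results of these data known. Alternatives were DESeq2 1.42.0, other scalings, filters and sets of libraries, the replicate number as a block, each replicate left out, and an offset for transcript length and GC. The result of 1 gene list is not reported here.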

Additional observations from a re-analysis of the deposited data

How the results depend on the processing

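Medium against vehicle called 802 genes, and the count moved most with the libraries fitted: 5 with all 59 libraries, 4 with only the vehicle and the extract's own library set, 475 with only Cimicifugae Rhizoma and vehicle, 311 with only the 5 libraries, and 340 with medium replicate 2 returned. The offset for transcript length and GC, chosen after seeing the data, gave 1269. Leaving out 1 library at a time gave 12 to 1216 genes. Without the low-count filter 1122 were called, 56.7% of them higher against 40.6%, and DESeq2 called 1154. For medium against low the count of 1 became 2 with all 59 libraries, 0 with the library set and 102 without the filter. CYP1B1, the 1 gene called, was not among the 2 called with all 59 libraries. For high against medium the count of 45 became 9, 3 and 202 in the same order, 104 with the offset, and 13 to 203 with 1 library left out; without medium replicate 3, 57.6% were higher against 20.0%. DESeq2 called 66 there. Medium against Citri Unshius Pericarpium went from 3655 to 4 with all 59 libraries, 0 with the library set (3529 at an unadjusted p below 0.05), and 0 to 7737 with 1 library left out. High against low went from 88 to 41, 13 and 195, to 138 with the offset, and to 34 to 75 with 1 library left out. None of the 74 genes named for medium against vehicle reversed its direction there in the alternatives that gave it a value. The causes of these moves were not tested.

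With the replicate number as a block, medium against vehicle called 855 genes, 747 of them among the 802; FADS1 lost its call and PDK4 gained one. The block gave 1, 48, 3519 and 96 genes in the other comparisons, in the order above. A block within each library set, also chosen after seeing the data, gave 1 gene for medium against low, 73 for high against medium and 112 for high against low. The groups share only replicate numbers 1 and 3, and differences between these replicates correlated across 10434 genes, which are not independent, with r = 0.25 between medium and vehicle, 0.30 between medium and low, 0.16 between medium and high, and 0.55 between low and high. All 10 pairs of groups compared this way correlated, from 0.163 to 0.5817, a hint from the data of something shared by number. With 2 shared numbers, and no label that ties a number to a culture or day, whether the numbers pair the samples cannot be told from the design, and the fits without a block were kept as the reported ones. With 2 medium libraries, changes near the median size of 1.25-fold rest on the spread borrowed from other groups.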
